A study of Mus musculus with 8 samples.

Results

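The B cell receptor has no enzymatic activity of its own, and 10 genes that encode the kinases, adaptors and phosphatases acting directly beneath it were followed in early B cell libraries of WT and Lf-/- mice. The members were taken by symbol: Blk, Lyn, Syk, Btk, Blnk, Plcg2, Pik3ap1, Bank1, Ptpn6 and Inpp5d. All 10 were found among the 52550 genes of each library. They were read in 2 classes, namely 3 members whose expression in blood cells is largely restricted to the B lineage (Blk, Blnk and Bank1, the B-restricted class) and 7 that myeloid cells also use (Lyn, Syk, Btk, Plcg2, Pik3ap1, Ptpn6 and Inpp5d, the myeloid-shared class).

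The mice were on the C57BL/6J strain, received no treatment, and differed by the knockout of the lactoferrin gene Ltf in the whole animal, with age-matched littermates as controls. Their age in numbers was not given in the sources used here. Cells of the pre-pro-B stage and of the later pro-B stage (gated by the study as B220+CD43+IgM-) came from bone marrow. At the pre-pro-B stage there were 2 libraries of each genotype. The pro-B stage had 1 library from WT and 2 from Lf-/- mice. Another labelled library of WT pro-B cells was not analysed here. The study's methods give a number of mice per group, and its figure legends give a different number, of repeats. Nothing says that replicates came from separate animals, so the spread between replicates may be technical. RNA was total RNA, and values are FPKM, fragments relative to the length of the transcript and to the depth of the library, a scale on which genes can be compared for their level.

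When the B cell receptor of mature cells or the pre-B cell receptor of precursors is engaged, Src family kinases such as Lyn and Blk phosphorylate the tails of the signaling chains, and Syk docks there. Syk phosphorylates the adaptor Blnk, on which Btk and phospholipase C gamma 2 (Plcg2) assemble to release calcium. Pik3ap1 and Bank1 are adaptors that link the receptor to phosphoinositide 3-kinase and to calcium release. The phosphatases SHP-1 (Ptpn6) and SHIP-1 (Inpp5d) end the signal.

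Several facts of the libraries bear on every value below. Ltf was between 2143 and 2731 FPKM in WT and between 88.2 and 168 FPKM in Lf-/- libraries. In the 6 libraries where depth could be read from the step between low values, it was 10900000 to 15300000 fragments. In Lf-/- pre-pro-B replicate 2 no step was found, and that library had 12172 genes above 0 against 19477 to 20250 in the others. Against the B-lineage labels, 17 neutrophil genes took 25.4% to 52.9% of all FPKM in each library. The 16 early B genes, among them Cd79a and Vpreb1, took 0.0297% to 0.452%. In such bulk RNA, more cells of a type and more RNA per cell cannot be told apart.

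Promoters of 8 of the 10 members were found in the RefSeq table for GRCm38.p6, each with 250 bases before and 50 after a start site. They were searched on both strands for the octamer ATGCAAAT bound by Oct factors, the ETS motif AGGAAGT, the EBF motif CCCNNGGG and the E-box CAGGTG. The promoters of both B-restricted members in the table and of Inpp5d, the one myeloid-shared member with a pair of ETS motifs, are shown, with every motif in capitals.
Blnk, chr19:40994172-40994471, minus strand: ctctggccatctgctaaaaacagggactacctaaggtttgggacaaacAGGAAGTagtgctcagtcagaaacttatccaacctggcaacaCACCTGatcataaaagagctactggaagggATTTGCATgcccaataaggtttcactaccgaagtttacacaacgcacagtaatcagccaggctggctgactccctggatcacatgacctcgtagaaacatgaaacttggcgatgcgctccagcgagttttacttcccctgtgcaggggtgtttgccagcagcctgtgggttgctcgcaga
Bank1, chr3:136326017-136326316, minus strand: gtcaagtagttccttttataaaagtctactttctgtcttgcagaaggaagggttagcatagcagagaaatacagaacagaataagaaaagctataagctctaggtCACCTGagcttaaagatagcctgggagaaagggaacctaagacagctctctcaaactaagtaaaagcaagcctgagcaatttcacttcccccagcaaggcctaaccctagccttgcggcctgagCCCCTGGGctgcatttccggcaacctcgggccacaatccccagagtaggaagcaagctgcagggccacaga
Inpp5d, chr1:87620062-87620361, plus strand: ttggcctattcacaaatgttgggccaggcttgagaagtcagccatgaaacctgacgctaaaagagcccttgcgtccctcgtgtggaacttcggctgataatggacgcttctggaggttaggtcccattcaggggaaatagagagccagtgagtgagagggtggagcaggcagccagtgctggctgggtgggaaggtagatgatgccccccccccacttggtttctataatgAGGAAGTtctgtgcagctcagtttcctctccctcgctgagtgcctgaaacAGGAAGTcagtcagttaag

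Of the 9 member promoters read (Syk has 2 start sites), the octamer stood in that of Blnk alone, with its first base 130 bases before the start site, and it is found in 1.74% of all 32851 promoters. The EBF motif stood in that of Bank1 alone, 21 bases before the start, and in 13.7% of all promoters. The ETS motif was in Blnk, Ptpn6 and, at 2 places, Inpp5d, against 9.35% of all promoters. The E-box was in every member promoter but those of Btk and Inpp5d, against 20.2% of all promoters. These matches are letters in a window, and binding was not measured.

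The members spanned a wide range of levels. Ptpn6 had the highest FPKM of the 10 in all 7 libraries and Bank1 the lowest, with Lyn second in all but Lf-/- pre-pro-B replicate 2, where Blnk was second. In WT pre-pro-B cells the order of means went on with Btk (10.7 ± 1.96 FPKM, SD, n = 2), Plcg2 (9.21 ± 1.1) and Blnk (8.49 ± 1.16), which lay within each other's spread. Blk (4.05 ± 0.670), Syk (4.01 ± 0.643) and Inpp5d (3.85 ± 0.443) also lay within each other's spread. The place of the B-restricted kinase and adaptor differed between genotypes. Counted from the highest level, Blnk had rank 4 to 6 among the members in the WT libraries and rank 2 or 3 in the Lf-/- libraries. Blk had rank 6 to 9 in WT and rank 4 or 5 in Lf-/- libraries.

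**Figure D1:**
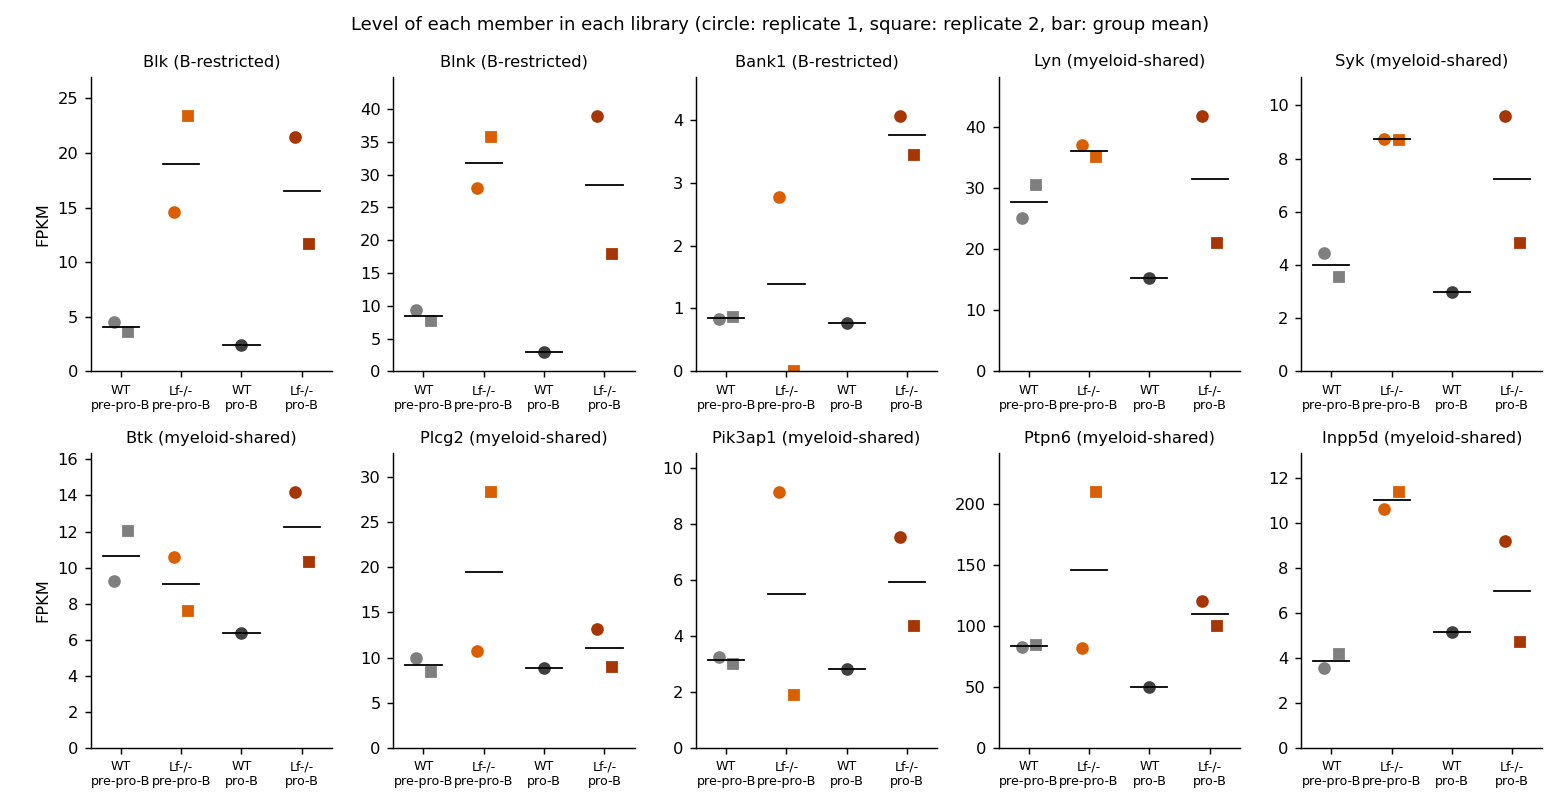
FPKM of each member (vertical axes, each from 0) in the 7 libraries, by group on the horizontal axis, with replicate 1 as a circle, replicate 2 as a square and the group mean as a bar. All Lf-/- values of Blk, Blnk and Syk sit above all WT values, and Bank1 is at 0 in one Lf-/- pre-pro-B library.

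Blk, a Src family kinase of B cells (ENSMUSG00000014453, GRCm38 chromosome 14, 63372836 to 63417037), was at 4.52 and 3.58 FPKM in WT pre-pro-B and 14.6 and 23.4 FPKM in Lf-/- pre-pro-B libraries. At the pro-B stage the WT library had 2.40 FPKM, against 21.5 and 11.7 FPKM from Lf-/- mice. The lowest Lf-/- value was thus above the highest WT value, and the mean of Lf-/- was 4.70-fold that of WT among pre-pro-B and 6.91-fold among pro-B libraries.

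Blnk, the adaptor that carries Btk and Plcg2 (ENSMUSG00000061132, chromosome 19, 40928927 to 40994535), was at 9.31 and 7.67 FPKM in WT and 27.9 and 35.7 FPKM in Lf-/- pre-pro-B libraries. The WT pro-B library had 3.01 FPKM of Blnk, and the Lf-/- pro-B libraries had 39.0 and 17.9 FPKM. No Lf-/- library overlapped a WT library, and the fold of the means was 3.74 for pre-pro-B and 9.46 for pro-B cells. From the lowest to the highest library Blnk spanned 13-fold, the widest of the 9 members that were above 0 throughout.

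Bank1, a B cell scaffold with ankyrin repeats (ENSMUSG00000037922, chromosome 3, 136053363 to 136326066), was low throughout. The WT libraries had 0.84 and 0.856 FPKM at the pre-pro-B and 0.775 FPKM at the pro-B stage. The Lf-/- libraries had 2.77 and 0 FPKM at the former and 4.07 and 3.44 FPKM at the latter. The 3 Lf-/- libraries with a value were above the 3 WT libraries, and the one listed at 0 was Lf-/- pre-pro-B replicate 2, in which fewer genes were above 0. At the length of its longest transcript, the WT values of Bank1 correspond to 39 to 46 fragments. An antisense gene, Gm31243, overlaps Bank1, and the strand setting of the libraries was not given in the sources used here.

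Of the myeloid-shared kinases, Syk (ENSMUSG00000021457, chromosome 13, 52583173 to 52648792) was at 4.47 and 3.56 FPKM in WT and 8.74 and 8.72 FPKM in Lf-/- pre-pro-B libraries. In pro-B cells Syk was at 2.97 FPKM in WT and 9.62 and 4.82 FPKM in Lf-/- libraries. The genotypes did not overlap in either stage, but the lower Lf-/- pro-B value lay close to the higher WT pre-pro-B value, and after median-ratio scaling across libraries they overlapped.

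Lyn, the Src family kinase that both starts and restrains the signal (ENSMUSG00000042228, chromosome 4, 3678115 to 3813122), was at 25.1 and 30.5 FPKM in WT and 37.1 and 35.1 FPKM in Lf-/- pre-pro-B libraries. It was at 15.4 FPKM in WT pro-B and 41.9 and 21.1 FPKM in Lf-/- pro-B libraries. Within each stage the Lf-/- libraries were higher, while across stages the genotypes overlapped. Lyn is overlapped on the opposite strand by 4 annotated genes.

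Btk, the Tec family kinase that activates Plcg2 (ENSMUSG00000031264, chromosome X, 134542336 to 134583570), overlapped between genotypes in pre-pro-B cells, with 9.26 and 12.0 FPKM in WT and 10.6 and 7.59 FPKM in Lf-/- libraries. At the pro-B stage the WT library had 6.36 FPKM of Btk, and the Lf-/- libraries had 14.2 and 10.3 FPKM. Its span over the 7 libraries, 2.23-fold, was the narrowest of the members.

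For Plcg2, the phospholipase (ENSMUSG00000034330, chromosome 8, 117498291 to 117635142), a single library stood out. The WT pre-pro-B libraries had 10.0 and 8.41 FPKM, and the Lf-/- pre-pro-B libraries had 10.7 and 28.4 FPKM. The pro-B libraries had 8.86 FPKM in WT and 13.2 and 8.96 FPKM in Lf-/-, so that all but Lf-/- pre-pro-B replicate 2 lay close together.

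Pik3ap1, the adaptor also named BCAP (ENSMUSG00000025017, chromosome 19, 41272377 to 41385102), was at 3.25 and 2.99 FPKM in WT and 9.15 and 1.88 FPKM in Lf-/- pre-pro-B libraries. The replicates of Lf-/- lay on both sides of WT there. Both Lf-/- pro-B libraries, at 7.53 and 4.35 FPKM, were above the WT pro-B library at 2.82 FPKM.

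Of the phosphatases, Ptpn6 (ENSMUSG00000004266, chromosome 6, 124720707 to 124738714) was at 82.7 and 84.0 FPKM in WT and 82.0 and 209.7 FPKM in Lf-/- pre-pro-B libraries. It was at 50.1 FPKM in WT pro-B and 119.9 and 99.8 FPKM in Lf-/- pro-B libraries. One Lf-/- pre-pro-B replicate was thus level with WT and the other far above it.

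Inpp5d (ENSMUSG00000026288, chromosome 1, 87620312 to 87720507) was at 3.54 and 4.16 FPKM in WT and 10.6 and 11.4 FPKM in Lf-/- pre-pro-B libraries, a 2.86-fold difference of the means with no overlap. In pro-B cells the WT library, at 5.16 FPKM, lay between the Lf-/- libraries at 9.20 and 4.71 FPKM.

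The genotype comparison asked what the absence of lactoferrin changed in these cells. In pre-pro-B cells the values of Blk, Blnk and Inpp5d differed most among the members. On the log2(FPKM + 1) scale, Blk was higher in Lf-/- by 1.96 ± 0.47 (SE), Blnk by 1.78 ± 0.42 and Inpp5d by 1.31 ± 0.43, while the median of all genes was 0.03. None passed the test across all genes (limma, adjusted p = 0.94 for each). Of the 9 members tested, 0 passed the adjusted threshold of 0.05, as did 0 of all 9720 genes (0%). At an unadjusted p under 0.05, these 3 members were higher in Lf-/- and 0 were lower, against 2% of all genes higher. Bank1 did not reach 1 FPKM in 2 of the 4 libraries and was not tested there. Both Lf-/- libraries lay above both WT libraries for 6 of the 10 members, compared with 15.5% of all genes tested. Those were Blk, Blnk, Lyn, Syk, Plcg2 and Inpp5d, with Ptpn6 in place of Lyn after median-ratio scaling. With 2 against 2 libraries, an exact permutation test cannot give a p below 0.333.

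In pro-B cells, 2 Lf-/- libraries were compared with the single WT library, so the WT side has no replicate check and its spread was taken from the other groups. Blnk was higher in Lf-/- by 2.78 ± 0.56 (SE, log2 scale, limma, adjusted p = 0.75) and Blk by 2.31 ± 0.56 (adjusted p = 0.79). Bank1 was higher by 1.42 ± 0.76, and the 7 myeloid-shared members by 0.27 (Plcg2) to 1.11 (Ptpn6). The whole table was shifted the same way, with a median over all 10793 genes of 0.48, which was 0.01 after median-ratio scaling. After that scaling the values of Plcg2 and Inpp5d turned to -0.32 and -0.25. Here 0 of 10 members and 0 of all genes (0%) passed the adjusted threshold. At an unadjusted p under 0.05, Blk and Blnk were higher and 0 members lower, against 4.18% of all genes higher. Both Lf-/- libraries were above the WT library for 9 of 10 members, which is little to read against 75.3% of all genes.

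Averaged over both stages, the members fell into a pair with large differences and 8 with smaller ones. Blnk was higher in Lf-/- by 2.28 ± 0.36 (SE, log2 scale, limma, adjusted p = 0.16) and Blk by 2.13 ± 0.36 (adjusted p = 0.19). The next was Syk at 0.97 ± 0.34 (adjusted p = 0.70), followed by Ptpn6 at 0.88, Inpp5d at 0.81, Bank1 at 0.74, Lyn at 0.64, Pik3ap1 at 0.61, Plcg2 at 0.57 and Btk at 0.31. The median of all genes was 0.25, so that Btk was within 0.06 of it, and the sign of Btk turned to -0.05 after median-ratio scaling. None of the 10 members passed the adjusted threshold, which 3 of all 10793 genes (0.0278%) did. At an unadjusted p under 0.05, Blk, Blnk, Syk and Inpp5d were higher and 0 members lower, against 5.74% of all genes higher. All 4 Lf-/- libraries lay above all 3 WT libraries for Blk, Blnk and Syk, which is 3 of 10 members against 9.87% of all genes tested. After median-ratio scaling that held for Blk and Blnk. Exchanging genotype labels within stages in all 18 ways gave Blk and Blnk a two-sided exact permutation p of 0.0556, the smallest this design can give, and the other 8 members had exact p-values of 0.111 (Syk) to 0.500 (Btk).

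Leaving out 1 library changed these calls. Without Lf-/- pre-pro-B replicate 1, its lone partner was set against the close WT pair, and 2856 genes passed the adjusted threshold in pre-pro-B cells, among them 5 members, namely Blk (adjusted p = 0.024), Blnk, Plcg2, Ptpn6 and Inpp5d. In the same setting 4 members passed in the average over both stages, with Blk and Blnk at an adjusted p of 0.024. The partner that remained is the library of unknown depth with fewer genes above 0, and the fit assumes that it varies like the other groups.

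**Figure D2:**
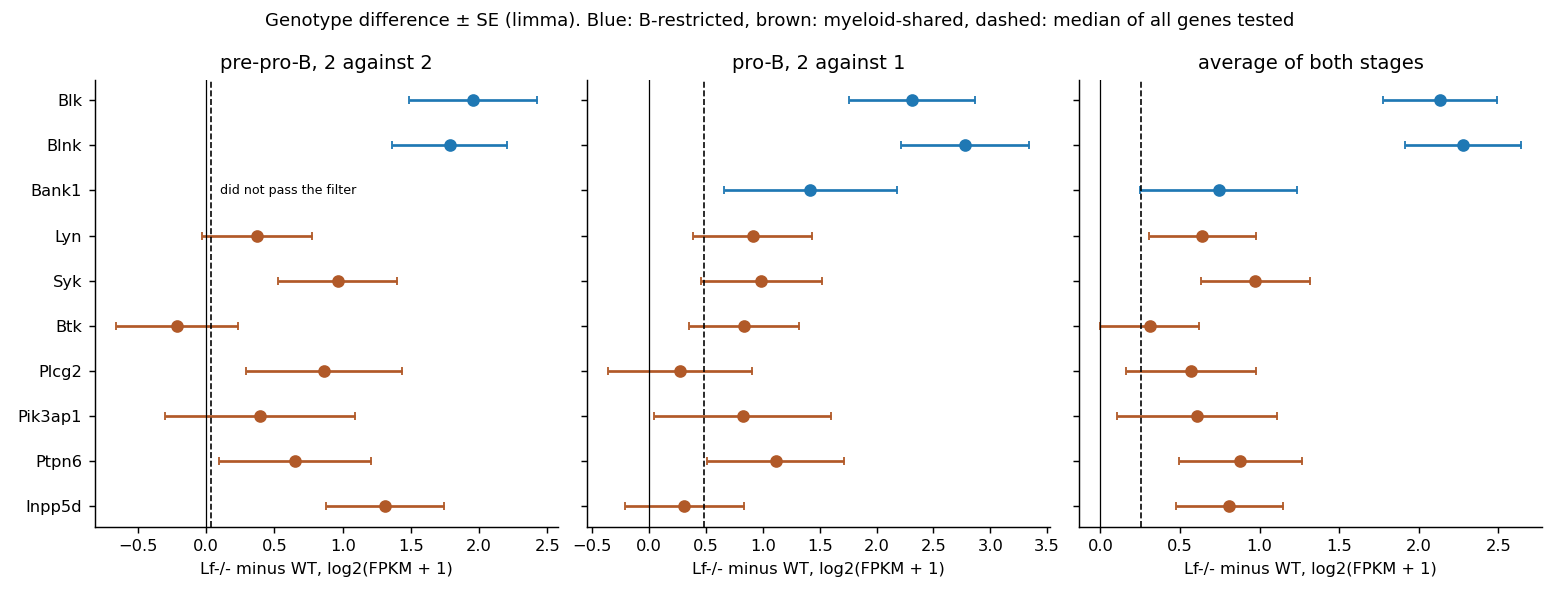
Difference between Lf-/- and WT on the log2(FPKM + 1) scale with its standard error (horizontal axes) for each member (rows), at the pre-pro-B stage, at the pro-B stage and averaged over both, with B-restricted members in blue, myeloid-shared members in brown and the median of all genes dashed. Blk and Blnk lie furthest to the right in each panel, between 1.78 and 2.78, and Btk lies on the other side of 0 in pre-pro-B cells at -0.21.

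The B-restricted and the myeloid-shared members were then set against each other within each library, where a common scaling of the library cancels almost entirely. The mean log2(FPKM + 1) of the B-restricted class was below that of the myeloid-shared class by 1.28 and 1.49 in the pre-pro-B and 1.67 in the pro-B libraries of WT mice. In Lf-/- mice it was below by 0.55 and 0.92 at the pre-pro-B and by 0.23 and 0.28 at the pro-B stage. The gap was thus narrower in every Lf-/- library than in any WT library. The change of the gap was 0.65 for pre-pro-B and 1.42 for pro-B cells, with an SD between replicates of 0.17. As a share of the summed FPKM of the 10 members, the B-restricted class made up 6.32% to 9.60% in WT and 16.3% to 23.0% in Lf-/- libraries.

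Bank1 bears on the size of that change more than the other members do. Its value of 0 lowers the class mean of Lf-/- pre-pro-B replicate 2, and with class medians in place of means the change was 1.67 for pre-pro-B and 1.62 for pro-B cells. With Btk, which is also held by mast cells and other myeloid cells, counted as B-restricted, the change was 0.14 for pre-pro-B and 1.10 for pro-B cells. The class medians of the differences averaged over both stages were 2.13 for the 3 B-restricted and 0.64 for the 7 myeloid-shared members, beside 0.25 for all genes. Taken member by member against the myeloid-shared mean of the same library, Blk and Blnk were higher in all 4 Lf-/- than in all 3 WT libraries, as were 1.11% of all genes tested, and Bank1 was not.

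**Figure D3:**
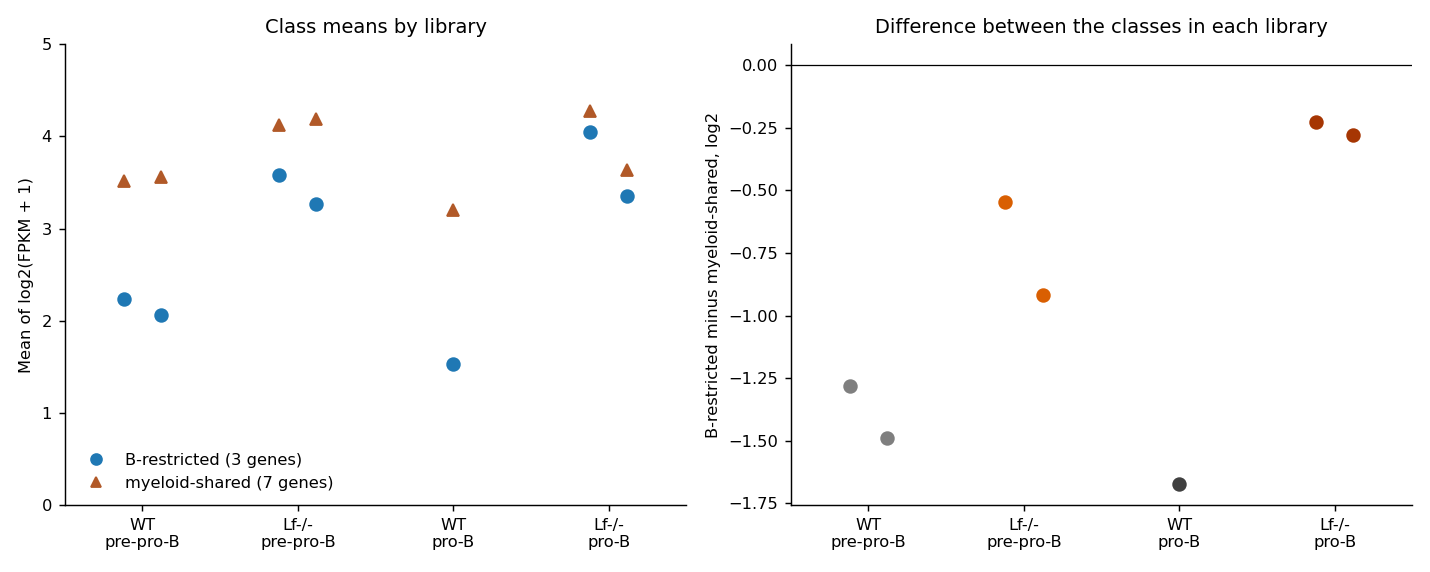
Mean log2(FPKM + 1) of the 3 B-restricted and 7 myeloid-shared members in each library (left) and the difference between the class means (right), by group on the horizontal axes, one point per library. The difference lies between -1.67 and -1.28 in the 3 WT libraries and between -0.92 and -0.23 in the 4 Lf-/- libraries.

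Ratios within a library, between a member and a relative with a like role in other blood cells, separated the genotypes upward for Blk and Blnk and downward for Btk. Blk to Lyn, the Src family kinase shared with myeloid cells, was 0.117 to 0.181 in WT and 0.394 to 0.669 in Lf-/- libraries. Blnk to Lcp2, the adaptor SLP-76 of T and myeloid cells, was 0.474 to 0.907 in WT and 1.98 to 4.92 in Lf-/- libraries, so that Lcp2 exceeded Blnk in each WT library and Blnk exceeded Lcp2 in each Lf-/- library. Lcp2 itself did not pass the test, with a difference averaged over both stages of 0.12 ± 0.35 (SE). Btk to Tec, a related kinase, was lower in each Lf-/- library than in any WT library, at 5.22 to 8.47 in WT and 2.46 to 4.91 in Lf-/- libraries. Tec itself was higher in each Lf-/- library, at 0.808 to 1.78 FPKM in WT and 2.10 to 3.08 FPKM in Lf-/-. Btk overlapped between the genotypes, at 6.36 to 12.0 FPKM in WT and 7.59 to 14.2 FPKM in Lf-/-. How often ratios of other genes separate the genotypes was not counted. Ptpn6 to Ptpn11, the related phosphatase SHP-2, was 16.9 to 29.6 in WT and 22.9 to 33.0 in Lf-/- libraries. Of the 16 relatives, 10 were tested in the average over both stages, 0 passed the adjusted threshold, and at an unadjusted p under 0.05 only Lck, a kinase of T cells, was higher, with 34.4 FPKM in Lf-/- pre-pro-B replicate 2 and 2.21 to 13.7 in the other libraries.

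Markers of B cells moved with the B-restricted members. The summed FPKM of the 16 early B genes was 663 and 612 in the pre-pro-B and 248 in the pro-B libraries of WT mice. In Lf-/- mice it was 3769 and 2580 at the pre-pro-B and 3053 and 1700 at the pro-B stage. All 4 Lf-/- libraries were above all 3 WT libraries for 10 of these 16 genes, among them Cd79a and Cd79b, against 9.87% of all genes tested. Only Rag2, in Lf-/- pre-pro-B replicate 2, and Rag1, in the WT pro-B library, were at 0. For the 8 mature B genes, such as Ms4a1 and Ighd, the sum was 41.4 to 58.2 in the WT and 187 to 402 in the Lf-/- libraries, and 6 of the 8 were higher in all Lf-/- than in all WT libraries. Of the 17 neutrophil genes, 0 were higher and 6 were lower in all Lf-/- than in all WT libraries. The share of all genes that were lower in this way was not counted. At the pro-B stage 5 of the 17 neutrophil genes were higher in Lf-/- by the log2 difference. Both Lf-/- libraries were above the WT library for 75.3% of all genes there. Among the 5 higher neutrophil genes the fold of the means was largest for Mmp8, at 4.65 (344 and 154 against 53.5 FPKM in WT). Mmp9 followed at 3.24-fold (210 and 89.7 against 46.3 FPKM). Retnlg was at 3.11-fold (10200 and 3914 against 2269 FPKM). Of the 17, those furthest below WT by fold were Elane and Prtn3. Elane was at 2673 and 10230 against 19000 FPKM, and Prtn3 at 235 and 739 against 1389 FPKM. The sum of the 17 was lowest in Lf-/- pre-pro-B replicate 2, at 176629 FPKM, and highest in the WT pro-B library, at 441749 FPKM. The part of B cell and neutrophil content in the differences of the members was not tested.

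Per 1000 FPKM of the early B genes in the same library, the genotypes overlapped for the B-restricted members. Cd79a and Cd79b made up 52.4% to 75.3% of that early B sum. Blnk was at 12.1 to 14.0 in WT and 7.40 to 13.8 in Lf-/- libraries, and Blk at 5.84 to 9.68 in WT and 3.87 to 9.09 in Lf-/- libraries. Over the 7 libraries Blnk spanned 1.90-fold on this measure, where its FPKM spanned 13-fold, and Blk 2.5-fold, where its FPKM spanned 9.78-fold. Bank1 was at 1.27 to 3.13 in WT and 0 to 2.02 in Lf-/- libraries. All 7 myeloid-shared members were lower per early B gene FPKM in all Lf-/- than in all WT libraries, as were 79% of all genes tested. For Lyn the values were 37.8 to 62.1 in WT and 9.83 to 13.7 in Lf-/- libraries. With Cd79a and Cd79b left out of the sum, a choice made after seeing the data, Lyn, Btk and Pik3ap1 were still lower in all Lf-/- libraries, as were 57.6% of all genes, and Syk, Plcg2, Ptpn6 and Inpp5d overlapped. Blk and Blnk overlapped there too and spanned 2.99-fold and 2.33-fold.

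**Figure D4:**
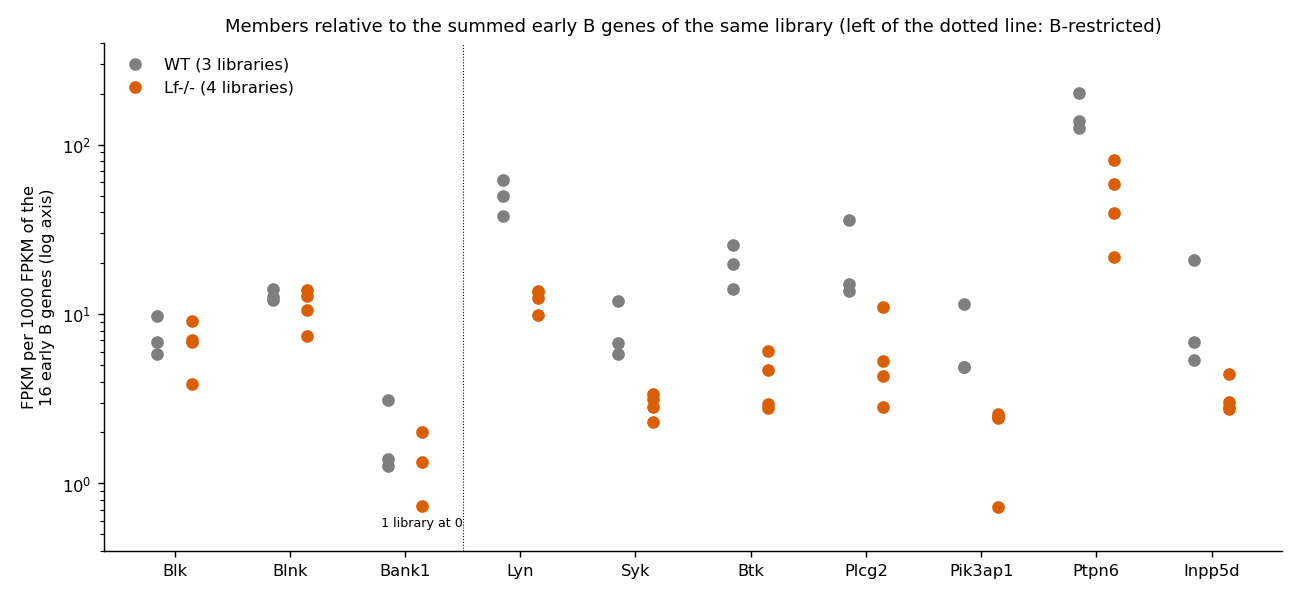
FPKM of each member per 1000 FPKM of the 16 early B genes of the same library (vertical axis, log scale), with the 3 WT libraries in grey and the 4 Lf-/- libraries in orange. The genotypes overlap for Blk, Blnk and Bank1, and all Lf-/- points lie below all WT points for the 7 myeloid-shared members, which held for 3 of them without Cd79a and Cd79b in the sum.

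Markers of other cells also moved between libraries in which single members stood out. In Lf-/- pre-pro-B replicate 2, the library with the highest Plcg2 and Ptpn6, the 8 monocyte genes summed to 107 FPKM and the 7 plasmacytoid dendritic cell genes to 388 FPKM. In its partner these sums were 44.2 and 65.1 FPKM, and in the other 5 libraries 35.2 to 88.0 and 61.5 to 351 FPKM. Of the 9 T and NK cell genes, Nkg7 alone, named after its values were seen, had 324 to 1283 FPKM. The other 8 summed to 105 FPKM in that library and to 9.21 FPKM in its partner. Among the remaining libraries these 8 summed to 105 and 104 FPKM for Lf-/- pro-B and to 16.5 to 25.4 FPKM for WT. The like sums had an unlike make-up. In Lf-/- pre-pro-B replicate 2 Gzma (55.57 FPKM) and Cd3d (41.55 FPKM) held most of it, and Cd3g, Trac, Il2rb and Ncr1 were at 0. In both Lf-/- pro-B libraries all 9 genes were at least 1 FPKM. At the pro-B stage 5 of the 9 were higher in Lf-/- at an unadjusted p under 0.05, against 4.18% of all genes, and 0 were lower. The plasmacytoid dendritic cell sum was 206 and 351 FPKM in the Lf-/- and 91.9 FPKM in the WT pro-B libraries. The part of these cells in the members' values was not tested.

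Between stages no member passed the test. In the average over both genotypes, pro-B minus pre-pro-B ran from -0.74 ± 0.36 (SE, log2 scale) for Blnk to 0.61 ± 0.49 for Bank1, and 8 of the 10 values were below 0. The median of all genes was -0.066, and 0.045 after median-ratio scaling. The share of all genes below 0 was not counted, so the 8 of 10 cannot be set against it. With limma, 0 of 10 members and 0 of 10793 genes (0%) passed the adjusted threshold, and 0 members passed an unadjusted p under 0.05, against 1.94% of all genes. The test of whether the genotype difference itself differed between stages gave values from -1.0 ± 0.67 for Inpp5d to 1.35 ± 0.99 for Bank1. Of the members 0 passed the adjusted threshold, as did 0 of all genes (0%), and 0 members passed an unadjusted p under 0.05, against 2.74% of all genes. Without Lf-/- pre-pro-B replicate 1, Bank1 passed the adjusted threshold of that test (limma, adjusted p = 0.042), and the library left alone on that side is the one in which it is listed at 0.

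Around the members, 69 other genes of the pathway were read in 7 lists. In the average over both stages 60 of them were tested, 0 passed the adjusted threshold, and at an unadjusted p under 0.05 13 were higher in Lf-/- and 0 lower, against 5.74% of all genes higher. Their median difference was 0.47, beside 0.25 for all genes. Upstream, the receptor's signaling chains had the largest differences, at 2.89 ± 0.33 (SE) for Cd79a and 2.84 ± 0.32 for Cd79b (limma, adjusted p = 0.084 for both). Cd79a was at 260.7, 203.3 and 86.1 FPKM in the WT libraries and at 731 to 1518 FPKM in the Lf-/- libraries. Both genes also belong to the early B list.

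Among the 7 inhibitory receptors, which recruit Ptpn6 and Inpp5d to the membrane, 4 were higher at an unadjusted p under 0.05, namely Cd72 (2.34), Cd22 (1.62), Siglecg (1.26) and Pecam1 (0.91). Cd22, a sialic acid binding receptor of B cells, was at 0.677 to 1.44 FPKM in WT and 3.29 to 8.65 FPKM in Lf-/- libraries. Of the 15 other adaptors and regulators, Sit1 (2.20) and Lat2 (1.11) were higher by the same measure. Of the 14 tested, 10 were above 0 and 4 below, which is little to read against 71.3% of all genes above 0. In the phosphoinositide 3-kinase list Plekha2 (1.54), which binds the lipid product that Inpp5d makes, had the largest difference of the 7 tested and was higher by the same measure.

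In the calcium list Itpr2 (0.90), a calcium release channel, was the single gene of 7 tested at an unadjusted p under 0.05, and in the Ras, Vav and Erk list Rasgrp3 (0.80) of 10 tested. In the PKC and NF-kB list 0 of 10 were, and all 10 values were above 0, as were 71.3% of all genes. After median-ratio scaling 7 of the 10 were above 0, and 45.4% of all genes. The list medians were 2.65 for the receptor list, 0.91 for the inhibitory receptors, 0.67 for PKC and NF-kB, 0.47 for phosphoinositide 3-kinase, 0.44 for Ras, Vav and Erk, 0.40 for the other adaptors and regulators and 0.27 for calcium. No test between lists was made.

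**Figure D5:**
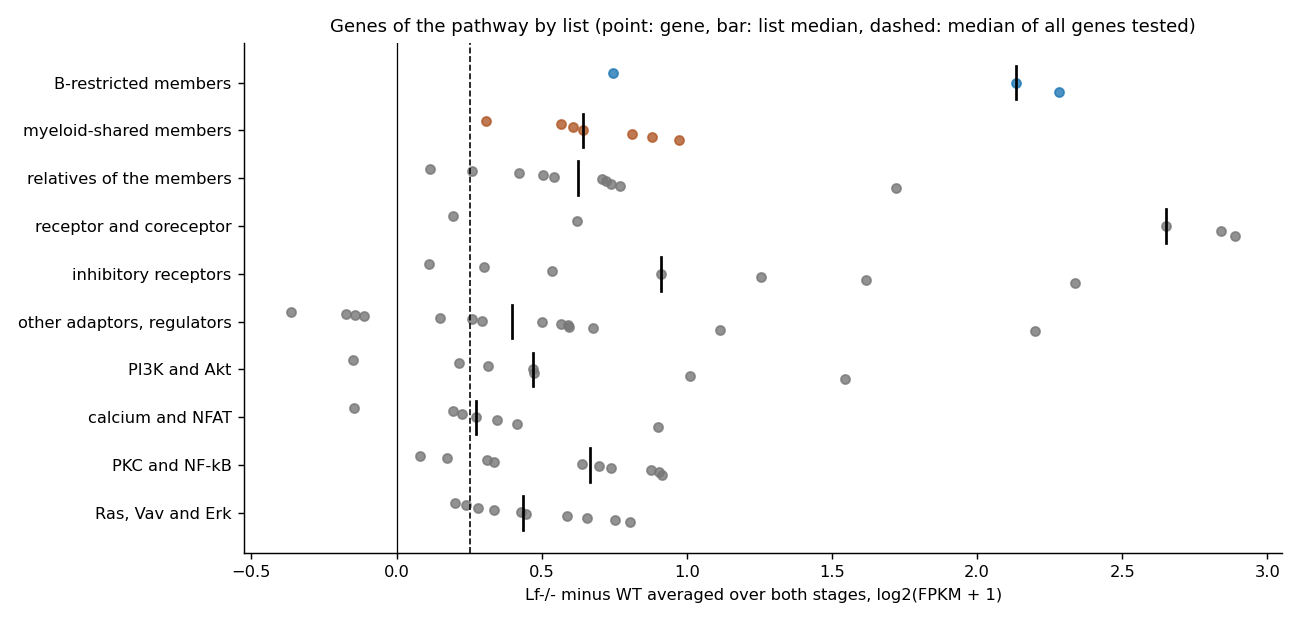
Difference between Lf-/- and WT averaged over both stages on the log2(FPKM + 1) scale (horizontal axis) for each tested gene (points) of the member classes and 8 lists (rows), with list medians as bars and the median of all genes dashed. Blk and Blnk, at 2.13 and 2.28, lie beside Cd79a and Cd79b at 2.89 and 2.84, while the 7 myeloid-shared members lie between 0.31 and 0.97.

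The genes whose profile over the 7 libraries was most like that of the B-restricted mean, among 10783 genes compared, were Gem, Gm8369, Gm10552, Igkj2 and Ypel3, with root mean square differences of 0.197 to 0.265 on the log2 scale, where the profile itself had a root mean square of 0.855. Gem was at 2.42 to 6.18 FPKM in WT and 12.2 to 27.1 FPKM in Lf-/- libraries. The members themselves were further from their mean, at 0.381 for Blk, 0.410 for Blnk and 0.756 for Bank1. Most like the myeloid-shared mean were Ap1ar, Zfp868, Tmem163, Nuak2 and H3f3a-ps2, at 0.0321 to 0.105 against a root mean square of 0.379 for the profile. Of the myeloid-shared members, Syk (0.180) and Lyn (0.195) were closest to that mean and Pik3ap1 (0.547) was furthest.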

How the data were processed

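Total RNA of sorted bone marrow cells was sequenced on a NovaSeq instrument. The authors deposited 1 table per library with 1 value per gene, read here as FPKM from the values. The submitters' processing notes name TopHat, Cufflinks, HTSeq and DESeq without versions or roles, and the build GRCm38. How multi-mapping reads were treated was not given in the sources used here. Coordinates and transcript lengths came from GENCODE M21 on GRCm38 (52403 of 52550 genes matched) and promoters from RefSeq. Depth was read in 6 of 7 libraries from the steps between low values, and in the other it is unknown, so no counting intervals were given.

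Values were transformed to log2(FPKM + 1), which understates the change of low genes. limma 3.58.1 in R 4.3.3, with the variance prior following the mean level, was fitted across all genes that reached 1 FPKM in 2 or more libraries, in the 4 pre-pro-B libraries for that stage and otherwise with 4 group means in all 7 libraries. Tests were two-sided with Benjamini-Hochberg adjustment over all genes. The fits were tested on simulated data. Python 3.11.15 with numpy 2.4.6, pandas 2.3.3 and matplotlib 3.10.9 did the rest. Groups came from the library labels. The members and lists were chosen with earlier results of these data known. All members are named. Of the other pathway lists at most 4 genes are named, by adjusted call and then by difference averaged over both stages, relatives of a member apart. Marker genes of cell types were named outside that rule, as examples, for a value of 0 or after their values were seen. The 5 genes most like each class were taken by root mean square difference of centred profiles. Alternatives were median-ratio scaling, quantile normalization, a pseudocount of 0.1, no filter, at least 1 FPKM in every library, a replicate block, all 7 libraries for pre-pro-B cells, each replicate left out, class medians and Btk counted as B-restricted. Some genes of these lists are counted but not reported here by name.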

Additional observations from a re-analysis of the deposited data

Results flagged for a closer look

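For 2 members the difference between stages in FPKM ran in opposite directions in the 2 genotypes in every library, as it did for 16.6% of all genes tested. Bank1 was lower in the WT pro-B library (0.775 FPKM) than in both WT pre-pro-B libraries (0.84 and 0.856 FPKM) and higher in both Lf-/- pro-B libraries (4.07 and 3.44 FPKM) than in both Lf-/- pre-pro-B libraries (2.77 and 0 FPKM). The test of the difference gave 1.35 ± 0.99 (SE, log2 scale, limma, adjusted p = 0.99). At the length of its longest transcript, the WT values of Bank1 correspond to 46 fragments at the pro-B stage and to 39 and 43 at the pre-pro-B stage. The WT direction thus rests on few fragments, and the value of 0 is from the library with 12172 genes above 0. Inpp5d was higher in the WT pro-B library (5.16 FPKM) than in both WT pre-pro-B libraries (3.54 and 4.16 FPKM) and lower in both Lf-/- pro-B libraries (9.20 and 4.71 FPKM) than in both Lf-/- pre-pro-B libraries (10.6 and 11.4 FPKM). The test of the difference gave -1.0 ± 0.67 (limma, adjusted p = 0.99). After median-ratio scaling, a check chosen after seeing the data, the opposition ended for Bank1, whose WT pro-B value of 1.05 was then above the WT pre-pro-B values of 0.833 and 0.917, and it held for Inpp5d. Plcg2 met it then, and so did 9.57% of all genes. The WT side rests on 1 pro-B library. Groups of 2 are too small to look for an outlying sample.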

How the results depend on the processing

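The number of members past the adjusted threshold was 0 in each of the 5 fits and under each alternative but one. Without Lf-/- pre-pro-B replicate 1 it was 5 in pre-pro-B cells, 4 in the average over both stages and 1 in the stage by genotype test, so that it ranged from 0 to 5, 0 to 4 and 0 to 1 over the libraries left out. With a replicate block, 0 members passed in any of the 5 fits, while 65 genes passed in pre-pro-B cells. The deviations of replicates with the same number were not correlated between groups (0.039, 0.053 and -0.013). Only the last of these lies within a genotype, between the Lf-/- stages, and it includes Lf-/- pre-pro-B replicate 2. WT has 1 pro-B library and could not be read this way. Whether the stages share animals therefore remains unknown. Without a filter on low values 256 genes passed in pro-B cells and 150 in the average, against 0 and 3, and 12 passed in the average with at least 1 FPKM in every library. The cause was not tested. Of all genes at an unadjusted p under 0.05 in the average, 93.0% were higher in Lf-/-, and 61.0% after median-ratio scaling.

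Of 383 values of single members under alternatives, 364 kept direction and side of the threshold, 10 newly passed it, all without Lf-/- pre-pro-B replicate 1, and 9 turned direction. In pro-B cells Plcg2 and Inpp5d were at -0.32 and -0.25 with median-ratio scaling and at -0.35 and -0.29 with quantile normalization, and Btk in the average at -0.055 and -0.079. With a library left out, Pik3ap1 ranged from -0.52 to 1.30 and Ptpn6 from -0.024 to 1.32 in pre-pro-B cells. Inpp5d ranged from -0.11 to 0.73 in pro-B cells. For part of the 364 values the direction was fixed in advance, and that part was not counted. A changed filter alters no estimate, and the later stage's estimates do not use the earlier stage's libraries. Blk at the later stage thus stayed at 2.31 under those settings. At the earlier stage the replicate block and the fit of all 7 libraries left Blk at 1.96. The 364 is therefore not a count of separate checks.

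The change of the gap between the classes was 1.04 in the average, 1.64 with class medians and 0.62 with Btk counted as B-restricted. In pre-pro-B cells it was 0.65, with 0.40 at a pseudocount of 0.1, 1.67 with class medians, 0.14 with Btk as B-restricted and 0.47 to 0.84 with a library left out. In pro-B cells it was 1.42, with 1.81 at a pseudocount of 0.1, 1.62 with class medians and 1.10 with Btk as B-restricted. With the early B sum taken without Cd79a and Cd79b, chosen after seeing the data, the members lower per early B FPKM in all Lf-/- libraries were 3 rather than 7. Blk and Blnk kept their direction under all alternatives, at 1.59 to 3.32 over the 3 genotype comparisons.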
